A study of Mus musculus with 6 samples.

Results

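The genes described are 6 mouse serpins, Serpinb6b, Serpinb6a, Serpinb9, Serpinb1a, Serpina3g and Serpina3f, taken by symbol from a table of 15686 genes that holds 22 serpins in all. All 6 had a value in each of the 6 libraries. They were chosen by their measured difference between the 2 groups of libraries, already known from this table, so their own differences are given as a description, with an error and without a test. RNA came from CD4+ T cells that a kit had isolated from mouse spleen after haematopoietic stem cell transplantation (HSCT); after an allogeneic transplant, such donor cells can attack host tissue, which is called graft-versus-host disease. In the 3 allogeneic-labelled libraries the donor was C57BL/6 and the host Balb/c. In the 3 labelled syngeneic both donor and host were Balb/c, and the strain label of all 6 reads Balb/c. The sources used here give no age of the mice, no time after transplantation and no word on pooling of animals. In the sample titles, S stands on the allogeneic-labelled libraries and A on the syngeneic-labelled ones.

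A list of 9 genes that can differ between the strains was read first, though it too was drawn up with earlier results known. In the allogeneic-labelled libraries limma called 8 lower and 1 higher, next to 26.6% and 40.7% of all genes tested. Among those called lower, Trbv26 passed the filter on low values through the syngeneic-labelled group alone, so nothing is read from the counts. Ighg2c, an IgG heavy chain gene of C57BL/6 for which Balb/c carries a different gene, was at 16.4, 15.99 and 16.45 FPKM (reads or fragments scaled to gene length and library size) in the allogeneic-labelled libraries against 9305, 9682 and 9827 in the syngeneic-labelled ones. H2-Ea-ps, whose transcript C57BL/6 mice lack, was at 132.5 ± 3.02 against 21.1 ± 2.73 FPKM (SD, n = 3 each). Both go against the labels. Every direction below is therefore one between libraries as labelled. By the labels, donor strain and type of transplant differ together, so they cannot be told apart in any difference below. All 12 CD4 T cell markers were measured, with summed levels of 1003 to 1020 FPKM in the allogeneic-labelled libraries and 1911 to 2043 in the syngeneic-labelled ones. Markers of granulocytes and their precursors were also present, at summed levels of 4060 to 4231 against 1281 to 1426 FPKM. Of the NK cell markers 4 of 6 and of the B cell markers 5 of 6 were in the table, and those of the other cell types all were. In such bulk samples, fewer cells of a type and less RNA per cell cannot be told apart. Whether replicates are separate animals is not stated, and p-values therefore cover only the spread among these samples, which may be technical.

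Serpins are protease inhibitors that offer a protease a bait loop and, once it is cut, trap the enzyme in an inactive complex. The Serpinb genes encode members of clade B, which lack a classical secretion signal and act mainly inside cells, while clade A proteins are mostly secreted. In cytotoxic lymphocytes, Serpinb9 is known to protect the cell from its own granzyme B, and Serpina3g, also called Spi2A, is known to guard against lysosomal cathepsins that leak into the cytosol.

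The start-site regions of 5 of the 6 genes, all but Serpinb1a, were matched in the RefSeq table for GRCm38.p6, which holds 250 bases before and 50 after a start site. They are shown because adjacent or closely related genes among the 6 had very different levels and differences. Capitals mark matches to a motif of STAT factors (TTCNNNGAA), of interferon-stimulated response elements or ISRE (GAAA, any 2 bases, GAAA), of NF-kB (GGG, any 2 bases, TTTCC) or of AP-1 (TGANTCA), searched on both strands, and each window is printed 5′ to 3′ on the strand of its gene.
Serpina3f (chr12:104214294-104214593, plus strand): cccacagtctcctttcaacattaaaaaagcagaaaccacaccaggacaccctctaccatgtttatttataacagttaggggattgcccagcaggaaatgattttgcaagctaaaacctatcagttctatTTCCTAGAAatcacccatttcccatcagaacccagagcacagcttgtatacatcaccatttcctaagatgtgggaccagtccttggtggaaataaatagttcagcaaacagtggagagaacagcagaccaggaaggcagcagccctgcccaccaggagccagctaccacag
Serpina3g (chr12:104235897-104236196, plus strand): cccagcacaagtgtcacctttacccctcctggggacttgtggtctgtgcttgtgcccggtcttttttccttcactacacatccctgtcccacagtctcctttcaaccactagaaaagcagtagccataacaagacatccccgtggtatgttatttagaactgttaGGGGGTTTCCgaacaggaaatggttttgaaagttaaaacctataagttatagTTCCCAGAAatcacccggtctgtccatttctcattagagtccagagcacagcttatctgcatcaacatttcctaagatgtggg
Serpinb9 (chr13:33004291-33004590, plus strand): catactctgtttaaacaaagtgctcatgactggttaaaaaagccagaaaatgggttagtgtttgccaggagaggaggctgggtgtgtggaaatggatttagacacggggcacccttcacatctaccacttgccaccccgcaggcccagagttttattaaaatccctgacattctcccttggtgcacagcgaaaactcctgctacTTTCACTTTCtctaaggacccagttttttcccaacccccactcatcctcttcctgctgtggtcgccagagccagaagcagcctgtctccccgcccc
Serpinb6b (chr13:32965011-32965310, plus strand): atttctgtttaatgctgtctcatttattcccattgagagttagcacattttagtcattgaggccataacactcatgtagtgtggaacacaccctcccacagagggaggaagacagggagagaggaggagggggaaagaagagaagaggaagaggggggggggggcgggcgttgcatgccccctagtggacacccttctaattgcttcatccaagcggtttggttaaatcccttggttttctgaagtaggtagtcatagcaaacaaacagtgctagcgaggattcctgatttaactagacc
Serpinb6a (chr13:34002745-34003044, minus strand): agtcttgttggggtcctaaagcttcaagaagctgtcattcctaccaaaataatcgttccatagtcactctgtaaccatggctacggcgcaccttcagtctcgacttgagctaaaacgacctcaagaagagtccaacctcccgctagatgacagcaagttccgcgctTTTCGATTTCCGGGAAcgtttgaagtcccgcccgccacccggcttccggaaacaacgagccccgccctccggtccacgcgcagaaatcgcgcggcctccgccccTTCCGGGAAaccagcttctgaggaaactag
The windows of the neighbours Serpina3f and Serpina3g could be aligned over 214 columns, of which 169 (79.0%) were identical. Both hold 1 STAT motif inside that stretch, and the Serpina3g window alone of the pair holds the NF-kB motif. The 50 bases after the RefSeq start site of Serpina3g were found in no GENCODE transcript of that gene, while those of the other 4 windows printed were, so the positions in the Serpina3g window rest on RefSeq alone. The Serpinb9 window holds the ISRE motif just before its start site, 46 to 37 bases upstream. That of Serpinb6a holds 2 STAT motifs and an ISRE motif, which shares 3 bases with the first of them, and that of Serpinb6b held none of the 4 motifs. The STAT motif occurred in 8.3% of the 32851 windows of the table, the ISRE motif in 3.44%, the NF-kB motif in 1.63% and the AP-1 motif in 7.81%. A second RefSeq start site of Serpina3f holds the same STAT motif and a second one of Serpinb6a holds no match. A match describes letters and not a bound site, and binding was not measured in these libraries.

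Of the 6 serpins 3 were far lower in the allogeneic-labelled libraries, 2 were moderately higher, and Serpina3g differed little. Serpinb6b, Serpinb9 and Serpina3f were 15.1-fold, 7.14-fold and 6.68-fold lower by the ratio of group means, whereas Serpinb6a was 2.33-fold and Serpinb1a 2.14-fold higher. Serpina3g, by far the most abundant in the allogeneic-labelled libraries, differed 1.15-fold.

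**Figure D1:**
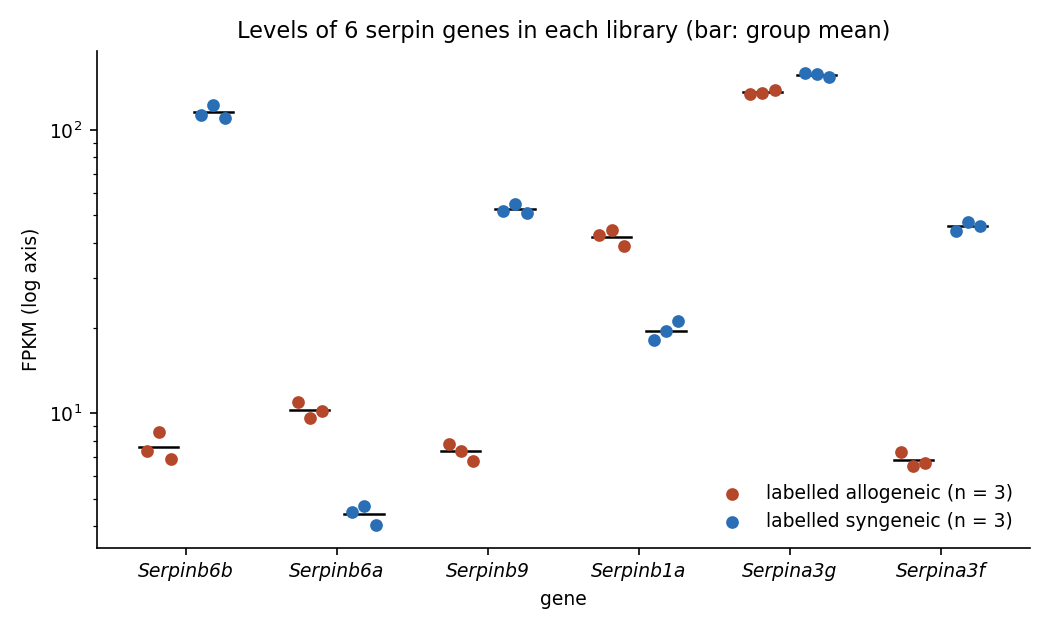
FPKM of each gene on a log axis in the 3 allogeneic-labelled libraries (red) and the 3 labelled syngeneic (blue), with a bar at each group mean. The groups do not overlap for any of the 6 genes, and the gap is widest for Serpinb6b and narrowest for Serpina3g, which lies between 134 and 158 FPKM in all libraries.

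Serpinb6b encodes a clade B serpin of mouse lymphocytes and lies on chromosome 13 (ENSMUSG00000042842, 32965209 to 32979067 in GRCm38, plus strand). Its level was 7.35, 8.61 and 6.94 FPKM in the allogeneic-labelled libraries, from 270, 315 and 246 reads. In the syngeneic-labelled ones it was 113, 122.5 and 110.3 FPKM, from 4337, 4677 and 3702 reads. The highest library labelled allogeneic thus stood far under the lowest labelled syngeneic. Group means were 7.63 ± 0.872 and 115 ± 6.42 FPKM (SD, n = 3 each), and the difference on the log2(FPKM + 1) scale was −3.76 (SE 0.0785). In absolute size that difference exceeded those of 99.5% of the 13235 genes tested. Within the allogeneic-labelled libraries Serpinb6b had a coefficient of variation of 11.4%, the largest of the 6 genes in either group.

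Serpinb9, the inhibitor of granzyme B, is the next of the 6 along the chromosome (ENSMUSG00000045827, 33003250 to 33017957, plus strand). It was at 7.84, 7.40 and 6.81 FPKM in the allogeneic-labelled libraries and at 51.8, 54.6 and 50.97 in the syngeneic-labelled ones. The groups lay apart, with means of 7.35 ± 0.516 and 52.5 ± 1.90 FPKM (SD, n = 3 each) and a log2 difference of −2.68 (SE 0.0555). Its reads numbered 373 to 445 in the allogeneic-labelled libraries and 2643 to 3219 in the syngeneic-labelled ones.

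Serpina3f, a clade A serpin, is encoded on chromosome 12 (ENSMUSG00000066363, 104214544 to 104221129, plus strand). Its levels of 7.31, 6.53 and 6.71 FPKM in the allogeneic-labelled libraries were well below the 44.1, 47.3 and 45.9 FPKM in the syngeneic-labelled ones. Means were 6.85 ± 0.406 and 45.8 ± 1.60 FPKM (SD, n = 3 each), with a log2 difference of −2.57 (SE 0.0508). In 50-base windows, 10.6% of its annotated transcript sequence also occurs in transcripts of other genes, and Serpina3g is the gene that shares most of them. How the authors counted reads that match both is not stated in the sources used here, so values of this pair carry that uncertainty.

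Serpina3g lies 21.7 kb from Serpina3f on the same strand (ENSMUSG00000041481, 104236245 to 104241939), and 87.4% of the bases of its annotated coding sequence were identical in the alignment with that of Serpina3f. That sequence holds 744 bases against the 1335 of Serpina3f. Over all aligned columns, the measure given for the other pairs, 48.7% were identical. The level of Serpina3g was 134, 135 and 138 FPKM in the allogeneic-labelled libraries and 158, 158 and 153 in the syngeneic-labelled ones. The groups did not overlap, with means of 135.7 ± 2.18 and 156.5 ± 2.62 FPKM (SD, n = 3 each). The log2 difference of −0.20 (SE 0.0309) was smaller in size than the 0.36 of the median gene. It turned to 0.041 after quantile normalization. Between 4559 and 5652 reads stood behind each value, and it ranked between 328 and 350 among all genes in every library. Of its 50-base windows 15.5% occur in other genes, most of them in the pseudogene Serpina3h, which was under 1 FPKM in all 6 libraries.

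Serpinb1a, an inhibitor of the neutrophil proteases elastase, cathepsin G and proteinase 3, lies at the other side of Serpinb6b (ENSMUSG00000044734, chromosome 13, 32842092 to 32851185, minus strand). It was at 42.5, 44.4 and 38.9 FPKM in the allogeneic-labelled libraries and at 18.1, 19.5 and 21.2 in the syngeneic-labelled ones. All 3 libraries labelled allogeneic were above all 3 labelled syngeneic, with means of 41.9 ± 2.80 and 19.6 ± 1.53 FPKM (SD, n = 3 each) and a log2 difference of 1.06 (SE 0.0704).

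Serpinb6a, an inhibitor known to act on cathepsin G, is at the far end of the chromosome 13 cluster (ENSMUSG00000060147, 33917918 to 34002794, minus strand). Its level was 11.02, 9.61 and 10.2 FPKM in the allogeneic-labelled libraries against 4.50, 4.71 and 4.04 in the syngeneic-labelled ones. The higher group again lay wholly above the lower, with means of 10.3 ± 0.707 and 4.42 ± 0.345 FPKM (SD, n = 3 each) and a log2 difference of 1.06 (SE 0.0719). Genes on the opposite strand cover part of its exons, Nqo2 14.1%, the antisense gene 1110046J04Rik 10.8% and Ripk1 4.46%. Whether reads were counted by strand is not stated in the sources used here, so reads of these genes cannot be told apart there. Nqo2 itself, a quinone reductase, differed by 0.26 on the log2 scale and Ripk1, a kinase of cell death signalling, by −0.14.

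Groups did not overlap for any of the 6 genes, with 2 higher and 4 lower in the allogeneic-labelled libraries. The background is 72.5% of all genes tested, 43.4% higher and 29.1% lower. By limma 67.4% of all genes were called, 40.7% higher and 26.6% lower. The 6 genes were chosen with this contrast known, and nothing is read from their counts. Their median log2 difference was −1.39, against 0.09 for all genes tested. The smallest number of reads behind any value of the 6 was 241, which gives a relative counting error of 6.44%.

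The make-up of the 6 transcripts together differed between the groups as well. Their sum was 209.7 ± 1.83 FPKM in the allogeneic-labelled libraries and 394 ± 10.9 in the syngeneic-labelled ones (SD, n = 3 each). Serpina3g made up 64.7% ± 1.56 of that sum in the allogeneic-labelled libraries and 39.7% ± 0.901 in the syngeneic-labelled ones. Serpinb6b made up 3.64% ± 0.387 against 29.25% ± 0.818, and Serpinb1a 19.99% ± 1.16 against 4.97% ± 0.448. In the syngeneic-labelled libraries the order of mean levels was Serpina3g, Serpinb6b, Serpinb9, Serpina3f, Serpinb1a and Serpinb6a, with no overlap between neighbours. In the allogeneic-labelled ones it was Serpina3g, Serpinb1a, Serpinb6a, Serpinb6b, Serpinb9 and Serpina3f. The last 3 of these overlapped in their library values and did not differ beyond their spread. The related pair Serpinb6b and Serpinb6a, whose coding sequences were identical in 81.2% of aligned columns, had a level ratio of 0.747 ± 0.129 in the allogeneic-labelled libraries and 26.2 ± 1.11 in the syngeneic-labelled ones. Serpina3g exceeded Serpina3f by a factor of 19.9 ± 1.30 against 3.42 ± 0.144.

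Expression of the T cell receptor chains differed between the groups too, so the levels of the 6 serpins were set against those of the CD3 chains. On that scale the median log2 difference over all genes was 1.02, with 86.2% of all genes called higher and 4.13% lower. There Serpinb6b stood at −2.73, Serpinb9 at −1.66 and Serpina3f at −1.56, Serpina3g turned to 0.88, and Serpinb6a and Serpinb1a stood at 2.01 and 2.11. Serpina3g was thus close to the median gene on this scale, and the other 5 kept their direction.

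**Figure D2:**
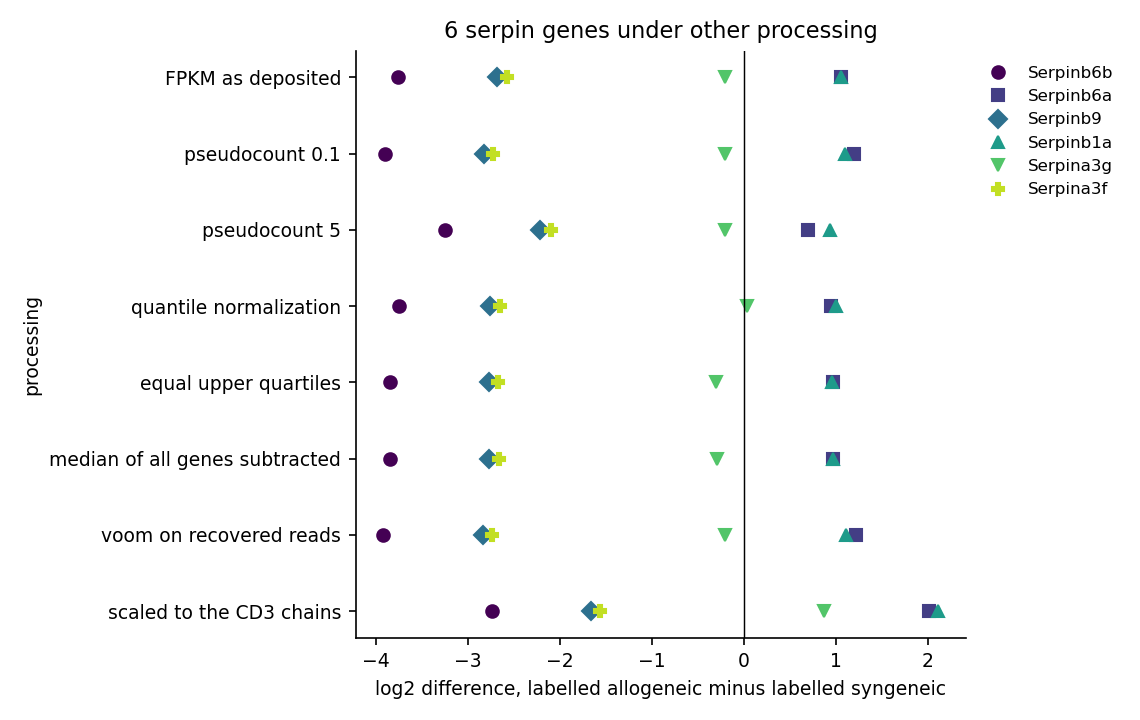
Log2 difference of each gene (x axis, libraries labelled allogeneic minus libraries labelled syngeneic) under 8 ways of processing (y axis), 1 symbol per gene. Serpinb6b, Serpinb9 and Serpina3f stay below 0 and Serpinb6a and Serpinb1a above 0, while Serpina3g lies near 0 and crosses it after quantile normalization (0.041) and after scaling to the CD3 chains (0.88).

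Markers of other cell types moved together with both sets of genes, and their counts stand next to 40.7% of all genes called higher and 26.6% called lower. Beside Serpinb6a and Serpinb1a, all 10 granulocyte and precursor markers and all 8 macrophage and monocyte markers were called higher in the allogeneic-labelled libraries, the latter with summed levels of 1245 to 1296 against 317 to 352 FPKM. All 5 mast cell and basophil markers were called higher (271 to 282 against 126 to 149.9 FPKM), as were all 6 red cell markers (365 to 383 against 5.01 to 5.54). Beside Serpinb6b, Serpinb9 and Serpina3f, all 12 CD4 T cell markers were called lower, with log2 differences between −1.26 and −0.60. Both CD8 T cell markers were called lower, with summed levels of 1.37 to 1.57 against 13.9 to 15.6 FPKM. Of the 6 NK cell markers 4 were in the table and 3 were tested, 1 higher and 2 lower, at summed levels of 10.7 to 14.6 against 5.37 to 6.02 FPKM. Most of the higher sum was Ncr1, at means of 9.29 against 0.349 FPKM. Klrb1c (1.02 against 2.51) and Klrk1 (1.29 against 2.61) were the ones called lower. All 6 plasma cell markers (489.9 to 511 against 807 to 833.5) and 3 of 3 tested B cell markers (20.5 to 22.7 against 34.2 to 39.2) were called lower. Of 5 tested dendritic cell markers 2 were called higher and 1 lower (18.3 to 18.9 against 8.18 to 9.59). Of the 6 red cell markers 3, of the 2 CD8 T cell markers 1, of the tested NK and B cell markers 1 each and of the dendritic cell markers 2 passed the filter through 1 group alone. Scaled to the CD3 chains, where 86.2% of all genes were called higher and 4.13% lower, 6 of the 12 CD4 T cell markers were called higher and 4 lower, 2 plasma cell markers higher and 2 lower, 1 B cell marker higher and 1 lower, 1 NK cell marker higher and 0 lower, and 4 dendritic cell markers higher and 0 lower. Cd3d, Cd3e, Cd3g and Cd247, which set that scale, are themselves in the CD4 T cell list, so the split of that list is partly fixed. Both CD8 T cell markers were called lower on that scale too, and all granulocyte, macrophage, mast cell and red cell markers higher. The part of these cells in the serpin differences was not tested.

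Among the other 16 serpins in the table, 9 passed the filter of at least 1 FPKM in 3 libraries and were tested with limma. Of these 3 were called higher and 5 lower in the allogeneic-labelled libraries, against a background of 40.7% and 26.6% of all genes. Their median log2 difference was −0.74. For 4 of the 9, Serpinb9b, Serpinb1b, Serpinb10 and Serpina1d, values reached 1 FPKM in 1 group alone. These passed the filter only through the group in which they are higher, so their levels are given without a p, and the counts are no support for a change of the family.

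The clade B genes next to Serpinb9 had low levels in the allogeneic-labelled libraries. Serpinb9b, a near copy of Serpinb9 with 85.3% of aligned coding positions identical, was at 0.4775, 0.406 and 0.324 FPKM in the allogeneic-labelled libraries and at 6.72, 6.17 and 6.15 in the syngeneic-labelled ones. Its log2 difference was −2.39 (SE 0.0789), and the groups did not overlap. Of the 50-base windows of Serpinb9, 0.378% also occur in Serpinb9b, and the antisense gene Gm36099 covers 8.3% of the exon bases of Serpinb9b. Serpinb1b, a relative of Serpinb1a with 89.9% of aligned coding positions identical, had 1, 0 and 0 reads in the allogeneic-labelled libraries and 49, 50 and 32 in the syngeneic-labelled ones. Serpinb1a itself stood on the opposite side, higher in the allogeneic-labelled libraries.

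Of the serpins called higher, Serpinf1, the secreted factor PEDF, rose from 1.09 ± 0.379 to 3.52 ± 0.338 FPKM (SD, n = 3 each, limma adjusted p = 0.000466). Serpinb10, a clade B gene annotated as a polymorphic pseudogene, was at 2.11 ± 0.407 against 0.709 ± 0.201 FPKM (SD, n = 3 each). Serpine2, an inhibitor of thrombin and urokinase, rose by 0.51 on the log2 scale (limma adjusted p = 0.00142). These 3 kept their direction in every alternative in which they were tested. Serpini1, neuroserpin, stood at −0.16 (limma adjusted p = 0.1445) and turned to 0.48 after scaling to the CD3 chains.

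Liver-type serpins were low and uneven between replicates. Serpina3k was at 0.359, 0.751 and 2.39 FPKM in the allogeneic-labelled libraries and at 2.03, 4.75 and 5.54 in the syngeneic-labelled ones, so that the groups overlapped. It was called lower (−1.27, limma adjusted p = 0.0287), and the call was lost without replicate 1 (adjusted p = 0.0852) or 2 (0.0810) of the allogeneic-labelled libraries, or without replicate 2 (0.0836) or 3 (0.0909) of the syngeneic-labelled ones. Serpina1b, which encodes the plasma elastase inhibitor alpha-1-antitrypsin, was called lower (−0.78, limma adjusted p = 0.00874). Serpina1d, of the same family, was at 0.554 ± 0.253 against 1.61 ± 0.445 FPKM (SD, n = 3 each). Copies of this family are near-identical and how reads were split among them is not given, so these values are uncertain. Scaled to the CD3 chains neither Serpina3k nor Serpina1b was called, with limma adjusted p of 0.2065 and 0.415, and nor was Serpina1d. Albumin, the main product of hepatocytes, showed a like spread, at 6.81, 9.72 and 15.03 FPKM against 18.9, 29.25 and 30.2. Of 10 hepatocyte genes, a list added after the values were seen, 9 were tested. Of these 1 was called lower and 2 higher, next to 26.6% and 40.7% of all genes. By sign 7 of the 9 lay below 0 and 2 above, with a median of −0.72 (0.04 scaled to the CD3 chains). The summed level of the list was 106 to 132 against 94.6 to 123 FPKM. Most of that sum was Hp, at 86.9, 85.1 and 90.4 against 56.4, 59.3 and 56.6 FPKM. The 2 called higher include Trf, which passed the filter through 1 group alone. Their part in the values of the liver-type serpins was not tested.

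The remaining 7 serpins were under the filter, and the highest of their values was 2.25 FPKM. They were Serpina1a, Serpina1e, Serpina3h, Serpina3n, Serpinb2, Serping1 and Serpinh1. Serpina1e was the most uneven of them, with 0.0381, 0.0765 and 0.986 FPKM in the allogeneic-labelled libraries and 0.656, 1.83 and 2.25 in the syngeneic-labelled ones.

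**Figure D3:**
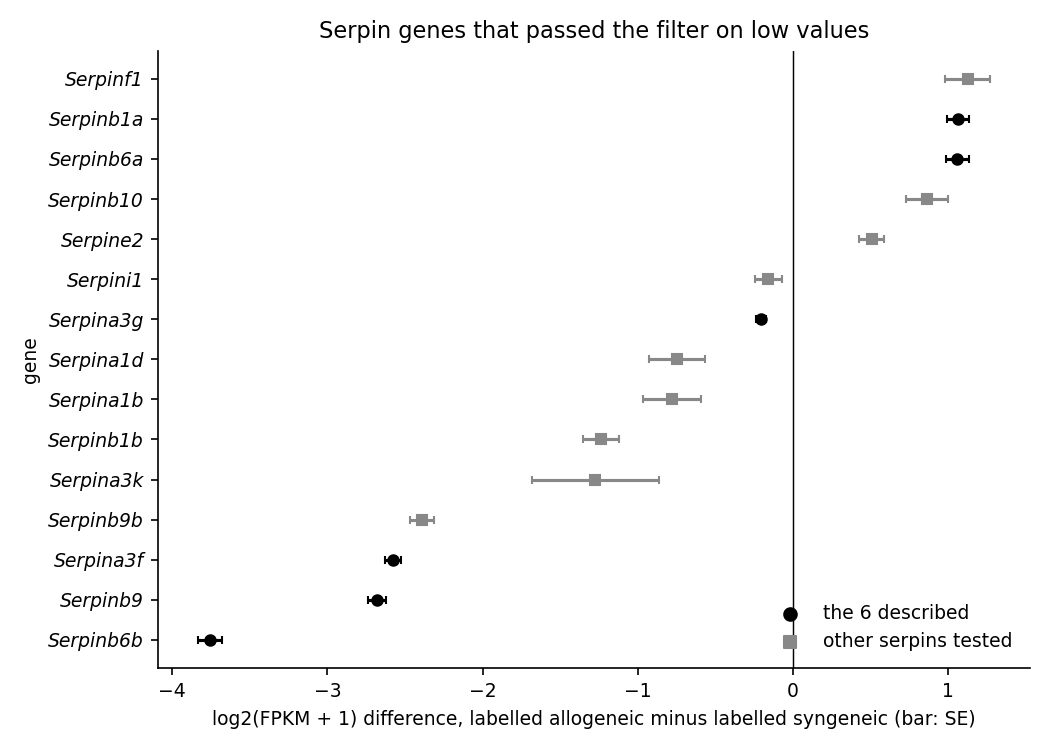
Log2(FPKM + 1) difference with its SE (x axis) of the 15 serpin genes that passed the filter (y axis), circles for the 6 genes described and squares for the other 9. Serpinb9b and Serpinb1b lie on the same side as Serpinb6b and Serpinb9, and Serpinf1, Serpinb10 and Serpine2 on that of Serpinb6a and Serpinb1a. Serpini1 and Serpina3g turn positive after scaling to the CD3 chains, Serpina3g also after quantile normalization.

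Neighbouring serpins differed in direction and size. On chromosome 13 the tested serpins run from Serpinb1a (1.06) through Serpinb6b (−3.76), Serpinb9 (−2.68), Serpinb9b (−2.39) and Serpinb1b (−1.23) to Serpinb6a (1.06), over 1075.8 kb. The gene before the cluster, Wrnip1, which encodes a DNA repair factor, stood at −0.07 (limma adjusted p = 0.143). Of 11 other genes within 500 kb of one of the 6 serpins 10 were tested, 5 were called higher and 0 lower by limma, next to 40.7% and 26.6% of all genes. At an unadjusted p under 0.05 2 of the 10 were lower, and voom on recovered reads called 2 lower. Their median log2 difference was 0.10. All 5 called higher lie near Serpinb6a, as do all tested neighbours except Wrnip1 and Dicer1, so their place is no result. Among the 5 were Bphl, a hydrolase (1.03, limma adjusted p = 0.000299) and Tubb2a, a tubulin (0.94, limma adjusted p = 0.000315). Slc22a23, a membrane transporter, also among them, passed the filter through 1 group alone and was at 1.41 ± 0.0558 against 0.330 ± 0.0517 FPKM (SD, n = 3 each). On chromosome 12 Dicer1, the nuclease of microRNA maturation, stood at −0.11 (limma adjusted p = 0.0631) beyond Serpina3f (−2.57) and Serpina3g (−0.20). After scaling to the CD3 chains Wrnip1 (0.96), Dicer1 (0.88) and Ripk1 (0.86) turned positive, near the median of all genes on that scale.

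**Figure D4:**
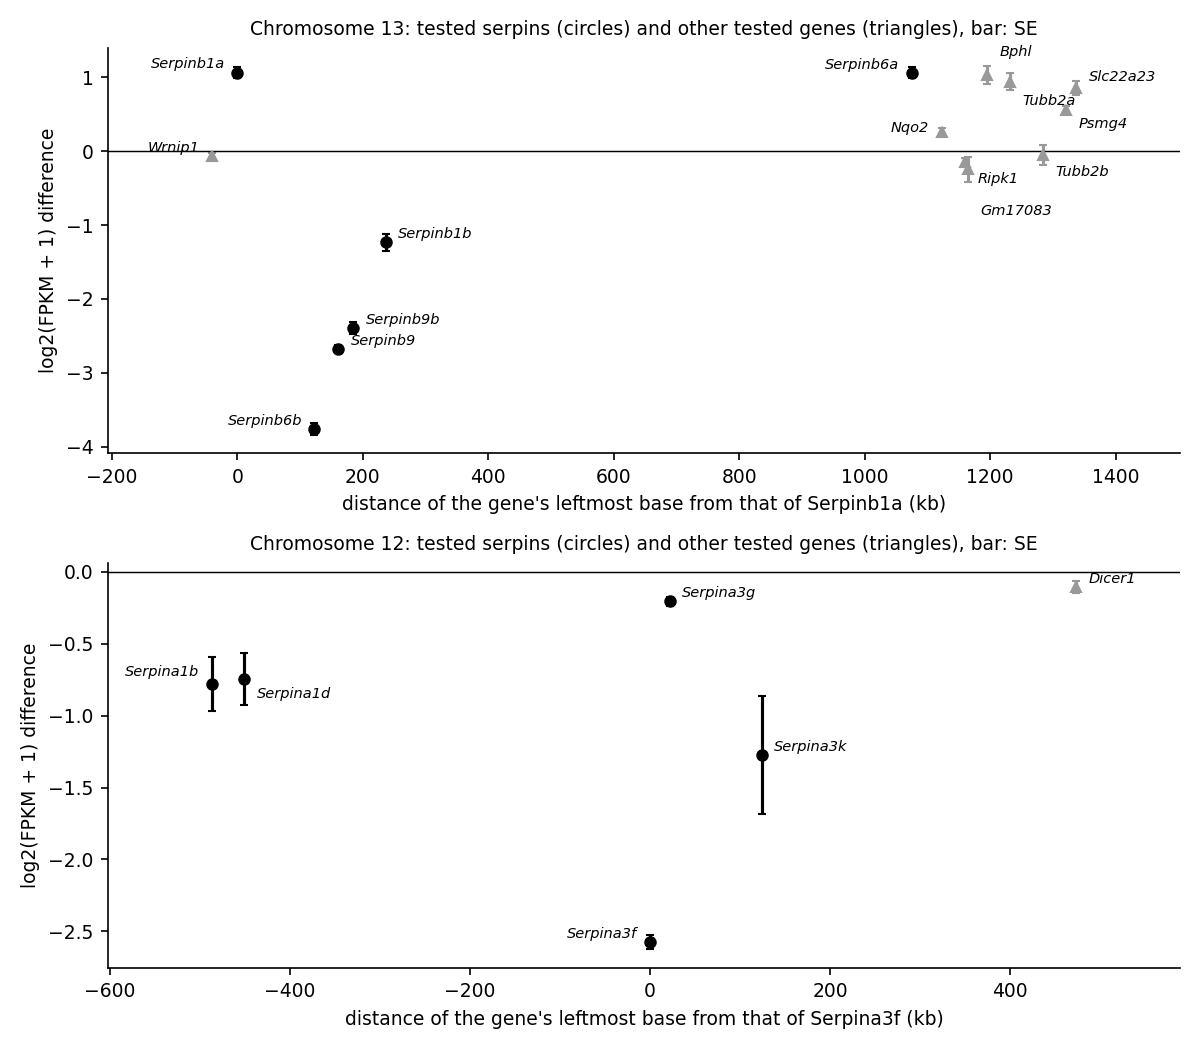
Log2(FPKM + 1) difference with its SE (y axis) against distance along the chromosome in kb (x axis), from Serpinb1a on chromosome 13 (top) and from Serpina3f on chromosome 12 (bottom), for tested serpins (circles) and other tested genes (triangles). Serpins with large negative differences lie between Serpinb1a and Serpinb6a, both at 1.06. Wrnip1, Ripk1, Gm17083, Tubb2b, Dicer1 and Serpina3g turn positive after scaling to the CD3 chains, Serpina3g also after quantile normalization.

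Proteases of a list that holds known targets of serpins, though not only these, were called in both directions. Of 20 listed, 19 were tested, 9 were called higher and 7 lower in the allogeneic-labelled libraries, next to 40.7% and 26.6% of all genes, and 3 were not called. Their median log2 difference was 0.13. The list was drawn up with earlier results on these libraries known.

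All 5 granzymes tested were called lower, next to 26.6% of all genes. On the scale of the CD3 chains, where 4.13% of all genes were called lower, only Gzmb, Gzma and Gzmc were. There Gzmk was not called (−0.11, limma adjusted p = 0.333) and Gzmm turned to 0.41. Both counts hold Gzmc and the first also holds Gzmm, whose limits are given below, so nothing is read from them. Gzmb, the granule protease that Serpinb9 inhibits, was at 24.6, 23.98 and 25.7 FPKM in the allogeneic-labelled libraries and at 270.2, 281 and 261.5 in the syngeneic-labelled ones. Its log2 difference of −3.40 (limma adjusted p = 5.01e-08) stood beside −2.68 for Serpinb9. Gzma, which Serpinb6b is reported to inhibit in mice, was at 31.6 ± 2.13 against 118 ± 4.68 FPKM (SD, n = 3 each, −1.87, limma adjusted p = 8.66e-07). Gzmk fell by 1.04 (limma adjusted p = 0.000219). Gzmc passed the filter through 1 group alone and was at 0.440 ± 0.217 against 7.54 ± 1.48 FPKM (SD, n = 3 each). The call of Gzmm (−0.34, limma adjusted p = 0.0474) was lost in 5 of the 6 fits without 1 library, with adjusted p from 0.06855 to 0.129. It was also lost with a pseudocount of 0.1 (limma adjusted p = 0.0514), without the filter (0.0529) and with voom (0.0808).

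The granulocyte proteases rose in the allogeneic-labelled libraries. Ctsg, the gene of cathepsin G and a target of both Serpinb1a and Serpinb6a, was at 243.5, 247 and 252 FPKM there and at 48.0, 50.25 and 59.2 in the syngeneic-labelled libraries (2.22, limma adjusted p = 1.35e-06). Prtn3, proteinase 3, rose by 2.08 and Elane, neutrophil elastase, by 1.72 (limma adjusted p = 1.57e-06 and 1.20e-05). These 3 genes are also among the granulocyte markers given above. Mcpt8 and Cma1, proteases of basophils and mast cells, rose by 1.12 and 1.10.

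Among the listed cathepsins, of which cathepsins B and L are known targets of Serpina3g, Ctsb, Ctsl, Ctsh and Ctss were called higher. The background is 40.7% of all genes. Ctsk was under the filter, at 0.645 ± 0.182 against 0.923 ± 0.0851 FPKM (SD, n = 3 each). Ctsb was at 173.4 ± 1.499 against 75.5 ± 5.35 FPKM (SD, n = 3 each, 1.19, limma adjusted p = 3.30e-06), and Ctsl at 5.80 ± 0.325 against 3.34 ± 0.107 (0.65, limma adjusted p = 0.000101). Ctsh rose by 1.07 and Ctss by 0.42. Ctsc, which activates granule proteases, stood at 0.01 (limma adjusted p = 0.903). Ctsw, a cathepsin of cytotoxic lymphocytes, fell by 0.95 (limma adjusted p = 4.56e-05) and turned to 0.12 after scaling to the CD3 chains. Among caspases Casp4 fell by 0.69 and turned to 0.25 on that scale, and Casp1 (0.13) and Casp8 (0.06) were not called.

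**Figure D5:**
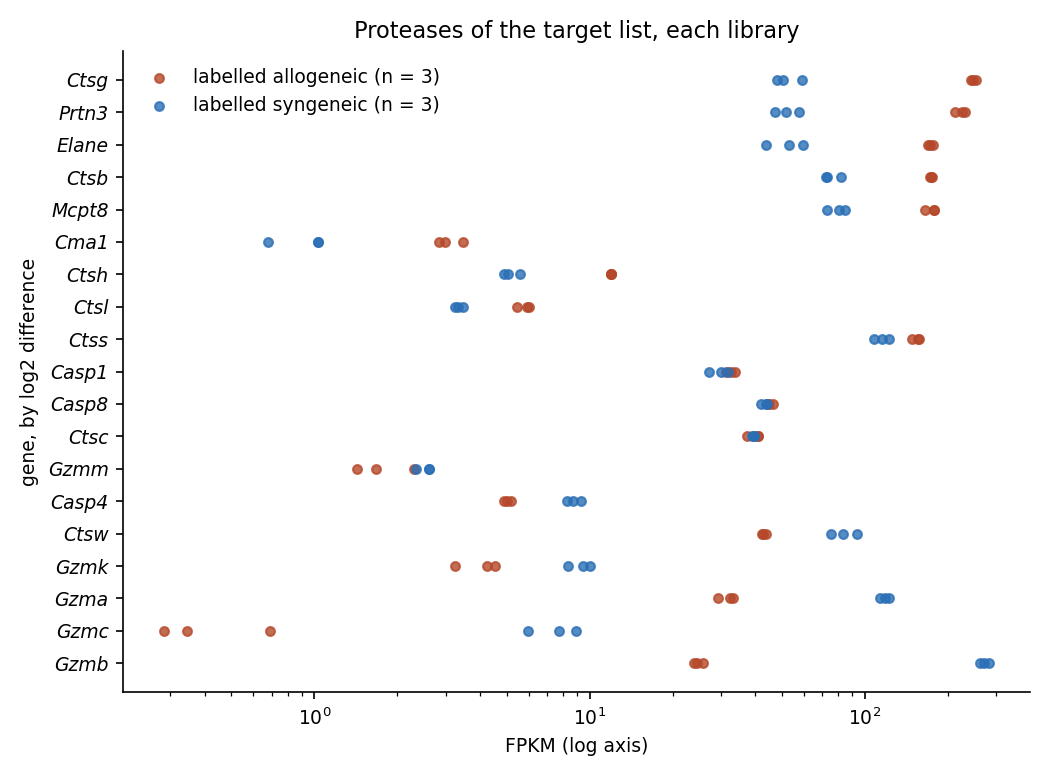
FPKM on a log axis (x) of the 19 tested proteases (y, ordered by log2 difference) in each of the 3 allogeneic-labelled libraries (red) and 3 labelled syngeneic (blue). Gzmb, Gzmc, Gzma and Gzmk lie at the lower end and Ctsg, Prtn3 and Elane at the upper end, while Gzmm comes after Ctsw and Casp4. Ctsw, Casp4 and Gzmm turn positive after scaling to the CD3 chains.

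Protease inhibitors of other families lay on both sides. Of 22 listed 19 were in the table and 17 were tested, of which 6 were called higher and 5 lower, next to 40.7% and 26.6% of all genes, with a median log2 difference of −0.02. These shares are near those of all genes and are no result about the inhibitors. Cst3, the secreted cysteine protease inhibitor cystatin C, rose from 91.1 ± 2.57 to 173.8 ± 7.31 FPKM (SD, n = 3 each, limma adjusted p = 3.95e-06). Pi16 rose by 0.99 and Slpi, an inhibitor of neutrophil elastase, by 0.60 (limma adjusted p = 1.72e-05 and 6.435e-05). Stfa1, a stefin, was at 0, 0.148 and 0 FPKM against 3.385, 7.23 and 3.55, and it passed the filter through 1 group alone. Birc3, an apoptosis inhibitor, fell by 0.94 (limma adjusted p = 1.62e-05) and turned to 0.087 after scaling to the CD3 chains, and Birc2 (−0.57), Cast (−0.44) and Stfa2l1 (−0.85) turned positive there as well.

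For each of the 6 genes, the 3 genes nearest in pattern were found among the genes tested. Left out were the 6 themselves, pseudogenes, T cell receptor and immunoglobulin segments, unnamed loci and genes without a known position. Nearness was the Euclidean distance between log2(FPKM + 1) values centred on the mean of the 6 libraries. Because the libraries form 2 groups, this distance rests mostly on the size of the group difference. Nearest to Serpinb6b were Klrc1, an NK-type receptor (distance 0.335), the ribosomal protein gene Rps2 (0.484) and Gzmb (0.513). Serpinb9 had Rpl26 (0.102), Klrd1, the partner chain of that receptor (0.122), and Padi2, an enzyme that converts arginine to citrulline (0.126). Serpina3f had the stress gene Ddit4 (0.138), Rpl26 (0.170) and Klrd1 (0.184). Serpinb1a was nearest to Grwd1, Lig1 and Parp1, and Serpinb6a to Psmc3ip, Phldb1 and Siglec1, a receptor of macrophages. Serpina3g was nearest to Zmynd11, Rfx3 and Rpl13, whose log2 differences were between −0.21 and −0.20. Ribosomal protein genes have many pseudogenes with nearly the same sequence, and their values are uncertain.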

How the data were processed

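RNA of CD4+ T cells from mouse spleen was depleted of ribosomal RNA and made into libraries, per the labels' protocols. The table the authors deposited holds 1 value per gene and library in FPKM, a unit taken from the values, and limma was used, per the submitters' processing notes. The aligner, counter, genome build and annotation were not given in the sources used here. With exon lengths of GENCODE M21, which holds 15663 of the 15686 gene IDs, the values of 14571 genes (92.9%) were whole reads in all 6 libraries within 0.05 reads. This gives 15676800 to 16250500 reads per allogeneic-labelled library and 14840100 to 16962100 per syngeneic-labelled one. Counting errors cover counting alone, since PCR copies are not marked.

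The test covered 13235 genes that reached 1 FPKM in 3 or more libraries. Values entered as log2(FPKM + 1), and limma 3.58.1 (R 4.3.3) was run with a mean trend, all 6 libraries and no covariate. Benjamini-Hochberg adjustment ran over all of them, with calls at an adjusted p under 0.05. The fold changes on this scale understate those of low genes. The fit was tested on simulated data. Tables, figures and sequence matches were made with Python 3.11.15, pandas 2.3.3, matplotlib 3.10.9 and biopython 1.88.

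The 6 genes and all lists were chosen with earlier results of these data known. Named were the 6 genes, other serpins in the table, measured genes of the protease and inhibitor lists, the neighbours with the largest called change, the 3 genes nearest in pattern to each of the 6, and the strain list. Further neighbours at the edges of the serpin cluster or overlapping Serpinb6a, and the hepatocyte list, were chosen after their values were seen. Alternatives were pseudocounts of 0.1 and 5, no filter, a filter at 5 FPKM, quantile and upper-quartile normalization, scaling to the CD3 chains, limma without the trend, the replicate number as a block, voom on recovered reads, and leaving out each library. Subtracting the median of all genes was added after seeing the data.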

Additional observations from a re-analysis of the deposited data

How the results depend on the processing

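Serpinb6b, Serpinb9, Serpina3f, Serpinb6a and Serpinb1a kept their direction under every alternative run. Serpina3g turned to 0.041 after quantile normalization and to 0.88 after scaling to the CD3 chains. The median of the 6 log2 differences was −1.46 and −1.15 with pseudocounts of 0.1 and 5, −1.30 after quantile and −1.49 after upper-quartile normalization, −1.47 with voom on recovered reads, −1.48 with the median of all genes subtracted and −0.34 scaled to the CD3 chains. That last scaling called 11404 genes higher and 546 lower, against 5389 and 3525, with 14 listed proteases higher and 3 lower, 13 other inhibitors higher and 1 lower, 2 other serpins lower and 10 neighbours higher. It turned Serpini1 to 0.48, Ctsw to 0.12, Casp4 to 0.25, Gzmm to 0.41, Birc3 to 0.087, Birc2 to 0.47, Cast to 0.59, Stfa2l1 to 0.084, Cst7 to 1.02, Stfa2 to 0.68, Spint2 to 0.99, Dicer1 to 0.88, Wrnip1 to 0.96, Ripk1 to 0.86, Gm17083 to 0.44 and Tubb2b to 0.53. A filter at 5 FPKM tests fewer genes and called 0 other serpins higher and 1 lower. Neighbours called lower numbered 1 with no filter, 1 with the filter at 5 FPKM, 3 after quantile and 3 after upper-quartile normalization and 2 with voom, and the cause was not tested. Without 1 library at a time, 4984 to 5192 genes were called higher and 3233 to 3331 lower, 4 to 5 other serpins lower, 9 to 10 proteases higher and 6 to 7 lower, 5 to 6 other inhibitors lower, and 0 to 1 neighbours lower (1 without replicate 2 of the syngeneic-labelled libraries). The median of the 6 then lay between −1.41 and −1.37. Same-numbered libraries showed no shared deviation (correlations −0.031, 0.016 and −0.054). Deviations from means of 3 libraries balance within each group, so whether the numbers stand for pairs cannot be told from this. With the replicate number as a block, 5230 genes were called higher and 3443 lower, and the counts of the other serpins, listed proteases, other inhibitors and neighbours were the same. The values of the 6 genes rest on 241 reads or more and those of Serpinb1b on 50 or fewer, and the effect of depth on the directions was not tested.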

Other observations

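The level of a protease relative to its inhibitor was higher in the allogeneic-labelled libraries for 4 of the 5 pairs computed and lower for 1. The pairs were picked by hand and Ctsg entered with both Serpinb6a and Serpinb1a, so nothing is read from this count. Gzmb exceeded Serpinb9 by a factor of 3.39 ± 0.343 in the allogeneic-labelled libraries and 5.17 ± 0.0463 in the syngeneic-labelled ones (SD, n = 3 each, ratio of FPKM). Gzma, in contrast, stood at 4.18 ± 0.547 against 1.02 ± 0.0222 times the level of Serpinb6b. Ctsg exceeded Serpinb6a by a factor of 24.1 ± 1.85 against 12 ± 2.31 and Serpinb1a by 5.93 ± 0.494 against 2.68 ± 0.110, and Ctsb stood at 1.28 ± 0.0306 against 0.482 ± 0.0299 times the level of Serpina3g. These ratios of transcript levels rest on the contrast with which the serpins were chosen and were not tested.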
